A study of Mus musculus with 6 samples.

Results

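Transcripts of the NRF2 antioxidant pathway were followed in 6 tumours, 3 grown in mice fed a high cholesterol diet (HCD) and 3 grown in mice fed a normal diet (ND). The 10 genes described were chosen by a rule that names them and uses no level, but with earlier results of these data known. They were the transcription factor gene Nfe2l2, its inhibitor gene Keap1, and 8 genes of antioxidant and detoxifying enzymes. These 8 were Nqo1, Gclc, Gclm, Txnrd1, Srxn1, Gsta4, Gstm1 and Gpx4. All 10 were found once each among 34745 deposited genes, and all 10 were among the 15539 genes with enough counts to be tested. By the labels, all hosts were C57BL/6J mice whose right flank received B16F10 cells, a cultured mouse melanoma line, under the skin, and both diets share strain and cells. Tumours are numbered 1 to 3 for each diet, with no word on whether a number stands for 1 animal. The p-values therefore reflect only how these samples vary, which may be technical.

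NRF2, the protein of Nfe2l2, is a basic leucine zipper factor that pairs with small Maf proteins and binds antioxidant response elements. In resting cells KEAP1 holds NRF2 and passes it to a cullin ubiquitin ligase for destruction. Oxidants and electrophiles modify cysteines of KEAP1, NRF2 then accumulates, and genes for glutathione synthesis, thioredoxin reduction, quinone reduction and conjugation rise. The pathway is therefore known to be switched mainly at the level of the NRF2 protein, which was not measured here. In tumours it is known for protecting cells against oxidative stress and drugs.

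RNA-seq libraries held 20351637 to 26228074 counts, and a count of 0 in 1 library allowed up to 0.114 to 0.147 CPM (counts scaled to library size), a limit that covers counting error only. The label was set against pigment cell markers: Tyr, Dct, Mlana and Oca2 had 0 counts in all 6 libraries, Tyrp1 had 1 count in total, and Pmel and Sox10 averaged 0.672 and 0.121 CPM, while Mitf averaged 6.10 CPM. The hepatocyte genes Alb, Afp and Hnf4a averaged 3611, 633 and 169 CPM. Apoa1 and Ttr averaged 61.4 and 10.1 CPM, and Ahsg, Fgg, Cps1 and Apoh were between 0.128 and 0.536 CPM. These values go against the B16F10 label, which may be wrong, and the tissue is called only the tumours. Skeletal muscle markers, summed over 6 genes, reached 1846 CPM in HCD 1 and 1794 CPM in ND 2 and ran from 11.8 to 179 CPM in the other 4 libraries. The 10 genes, and the wider pathway set as a whole, are therefore also given without HCD 1 and ND 2. In bulk tissue, fewer cells of a type and less RNA per cell cannot be told apart.

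Promoter stretches with the core letters of the antioxidant response element are shown first, because that element is how NRF2 is known to reach its target genes. The motif searched was TGACNNNGC on both strands, in the 300 bases from 250 before to 50 after each RefSeq start site (GRCm38). Of the 10 genes, 8 had a promoter entry, with 14 start sites in all. A match was present at 4 start sites, of Nfe2l2, Gclm, Txnrd1 and Srxn1. Over all promoters, 12.4% of 32851 start sites held a match. In the stretches, written 5′ to 3′ on the strand of the gene, capitals mark the match, which reads forward in Nfe2l2 and as its reverse complement in the others.
Nfe2l2, chr2:75704874-75704913, minus strand: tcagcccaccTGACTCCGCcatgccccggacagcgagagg
Gclm, chr3:122245402-122245452, plus strand: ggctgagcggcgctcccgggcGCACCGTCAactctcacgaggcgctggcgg
Txnrd1, chr10:82859093-82859143, plus strand: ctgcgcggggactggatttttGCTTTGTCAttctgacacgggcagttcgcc
Srxn1, chr2:152105542-152105570, plus strand: gcagtgggcaGCTAGGTCAgagtgagaca
The match began 240 bases before the start site in Nfe2l2, 134 before it in Gclm and 92 before 1 of 3 start sites of Txnrd1, and 28 bases after it in Srxn1. None of the 4 matches overlapped an AP-1 core (TGACTCA on either strand). No match was found in the windows of Nqo1, Gstm1, Keap1 or Gpx4, which says only that these letters are not in these windows. The matches are letters in a sequence, and binding was not measured.

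Per base of transcript, the 10 genes covered a wide range of levels. On the authors' FPKM scale (counts scaled to transcript length and library total), the mean over the 6 libraries was 60.2 ± 5.27 FPKM for Txnrd1, 53.9 ± 1.62 for Nfe2l2, 43.4 ± 3.18 for Gpx4, 33.7 ± 11.1 for Gstm1 and 23.6 ± 5.18 for Gclc (SD, n = 6 each). Below these came Gsta4 at 19.0 ± 7.58 FPKM, Gclm at 13.8 ± 4.92, Srxn1 at 11.8 ± 2.34, Keap1 at 5.57 ± 0.280 and Nqo1 at 4.76 ± 2.60. The ranges over the 6 libraries stayed apart between Nfe2l2 and Gpx4 and between Srxn1 and Keap1. Every other pair of neighbours in this order overlapped, among them Txnrd1 with Nfe2l2 and Keap1 with Nqo1. Nqo1, which encodes a quinone reductase often used as a readout of NRF2, had the lowest mean over the 6 libraries and in ND tumours. In HCD tumours Keap1 was lower, at 5.56 ± 0.349 FPKM, against 6.19 ± 3.00 FPKM for Nqo1 (SD, n = 3 each).

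Both regulators varied little. Nfe2l2 (ENSMUSG00000015839, GRCm38 chromosome 2, 75675513 to 75704641) had 214, 209 and 212 CPM in HCD 1 to HCD 3, against 224, 204 and 205 CPM in ND 1 to ND 3. The libraries of both diets lay close together and overlapped, and the highest was only 1.10 times the lowest. Its log2 fold change of HCD over ND was 0.00489 with a 95% interval of -0.14 to 0.15 (edgeR adjusted p = 0.987). Keap1 (ENSMUSG00000003308, chromosome 9, 21229730 to 21239361) had 41.4, 41.2 and 47.6 CPM in HCD tumours, against 43.8, 45.8 and 42.3 CPM in ND tumours. The diets overlapped here too, with HCD 3 highest and HCD 2 lowest, at a log2 fold change of -0.02 and an interval of -0.22 to 0.19 (edgeR adjusted p = 0.967). Keap1 shares exon bases with Gm16754 on the other strand, and whether counting used strand is not given in the sources used here. Signs of both fold changes depend on single libraries, so neither gene has a direction. Variation between libraries was low for Nfe2l2 against the table as a whole: 97.4% of tested genes had a larger SD of log2 CPM over the 6 libraries than Nfe2l2, and 85.7% a larger one than Keap1. Neither share was matched for level.

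**Figure D1:**
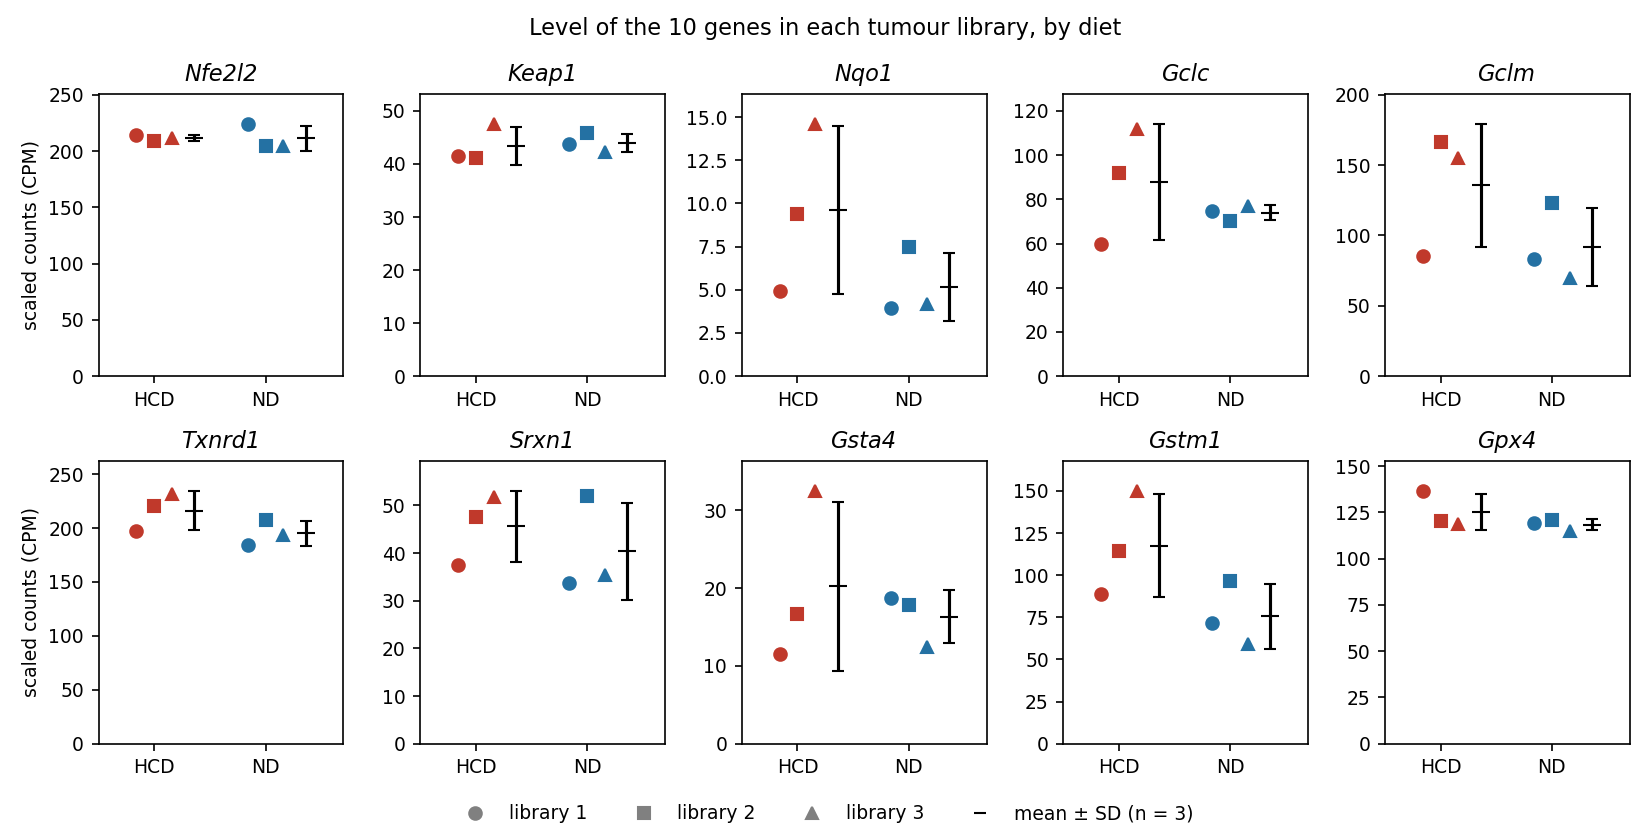
Scaled counts (CPM, axes from 0) of each of the 10 genes in every library, HCD in red and ND in blue, with the marker shape giving the library number and the black bar the mean ± SD of the 3 libraries of a diet. Nfe2l2, Keap1 and Gpx4 are flat, whereas Nqo1, Gclm and Gstm1 run higher in HCD 2, HCD 3 and ND 2 than in the other 3 libraries.

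Of the 10 genes, the quinone reductase gene Nqo1 showed the widest spread between libraries. Nqo1 (ENSMUSG00000003849, chromosome 8, 107388225 to 107403206) had 4.92, 9.37 and 14.6 CPM in HCD 1 to HCD 3, against 3.93, 7.45 and 4.17 CPM in ND 1 to ND 3. HCD 3 and HCD 2 were highest, but HCD 1 lay below ND 2, so the diets overlapped. The 6 libraries differed by up to 3.72 times, on raw counts of 86 to 300. Of all tested genes, 6.67% had a larger SD of log2 CPM, a share not matched for level. Nqo1 averaged 9.63 ± 4.85 CPM in HCD tumours and 5.18 ± 1.97 CPM in ND tumours (SD, n = 3 each). The log2 fold change was 0.89 ± 0.43 SE, its interval ran from -0.13 to 1.91 (edgeR adjusted p = 0.839), and its value was 0.46 without HCD 3 and 1.25 without ND 2.

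Glutathione synthesis is limited by glutamate-cysteine ligase, whose catalytic subunit is encoded by Gclc and whose modifier subunit is encoded by Gclm. Gclm (ENSMUSG00000028124, chromosome 3, 122245557 to 122270732), 1 of the genes with the motif before its start site, had 85.7, 166 and 155 CPM in HCD tumours, against 83.0, 123 and 69.7 CPM in ND tumours. HCD 2 and HCD 3 exceeded all ND libraries and HCD 1 did not, so the diets overlapped. The log2 fold change of Gclm was 0.56 ± 0.29 SE, with an interval of -0.14 to 1.26 (edgeR adjusted p = 0.839). Gclm shares exon bases with Gm17494 on the other strand and with Gm6061, which had 0 counts, on its own strand. Gclc (ENSMUSG00000032350, chromosome 9, 77754535 to 77794485) had 59.6, 92.0 and 112 CPM in HCD tumours, against 74.5, 70.3 and 77.0 CPM in ND tumours. Its ND libraries lay within a narrow band, and the HCD libraries lay on both sides of it, HCD 1 below and HCD 2 and HCD 3 above. The log2 fold change of Gclc was 0.25 ± 0.21 SE (interval -0.24 to 0.74, edgeR adjusted p = 0.850). Leaving out HCD 3 gave 0.04, and leaving out HCD 1 gave 0.46. Both subunits were thus high in HCD 2 and HCD 3, but ND 2 was the highest ND library for Gclm and the lowest for Gclc.

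The genes of thioredoxin reduction and peroxiredoxin repair differed less. Txnrd1 (ENSMUSG00000020250, chromosome 10, 82833951 to 82897712), the cytosolic selenoprotein that reduces thioredoxin, had 197, 220.1 and 232 CPM in HCD tumours, against 184, 208 and 193 CPM in ND tumours. The order of the libraries was that of Nqo1, from ND 1 at the bottom to HCD 3 at the top, within a range of 1.26 times. The log2 fold change of Txnrd1 was 0.15 ± 0.08 SE (interval -0.04 to 0.34, edgeR adjusted p = 0.839). Srxn1 (ENSMUSG00000032802, chromosome 2, 152105516 to 152111376), which encodes sulfiredoxin, the enzyme that revives overoxidised peroxiredoxins, had 37.4, 47.6 and 51.7 CPM in HCD tumours, against 33.6, 52.0 and 35.4 CPM in ND tumours. ND 2 was the highest of all 6 libraries for Srxn1, and the diets overlapped. Its log2 fold change was 0.18 ± 0.20 SE (interval -0.29 to 0.64, edgeR adjusted p = 0.874). Leaving out ND 1 gave 0.06, and leaving out ND 2 gave 0.41.

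Conjugation to glutathione was represented by Gstm1, a mu class transferase, and Gsta4, an alpha class transferase known for clearing 4-hydroxynonenal, a product of lipid peroxidation. Gstm1 (ENSMUSG00000058135, chromosome 3, 108012255 to 108017973) had 88.6, 114 and 149.8 CPM in HCD tumours, against 71.3, 96.6 and 59.0 CPM in ND tumours. Again HCD 1 alone of the HCD libraries lay within the ND range, below ND 2. At 0.64 ± 0.24 SE on the log2 scale, with a 95% interval of 0.08 to 1.19, Gstm1 had the smallest p of the 10 genes before adjustment, 0.031, and it did not pass over all genes (edgeR adjusted p = 0.839). The mu class genes lie side by side and are close in sequence, and how reads with several matches were counted is not given in the sources used here. Gsta4 (ENSMUSG00000032348, chromosome 9, 78182774 to 78209349) had 11.5, 16.7 and 32.4 CPM in HCD tumours, against 18.7, 17.8 and 12.4 CPM in ND tumours. HCD 3 alone stood above the rest, and HCD 1 was the lowest library. The log2 fold change of Gsta4 was 0.31 ± 0.37 SE (interval -0.57 to 1.19, edgeR adjusted p = 0.883) and turned to -0.21 without HCD 3.

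Gpx4, the selenoprotein gene for the glutathione peroxidase that reduces lipid hydroperoxides in membranes and restrains ferroptosis, was nearly flat. Gpx4 (ENSMUSG00000075706, chromosome 10, 80047166 to 80056439) had 136, 120.3 and 119 CPM in HCD tumours, against 119, 121 and 115 CPM in ND tumours. HCD 1 was the highest library, in contrast to the 6 genes for which HCD 3 was highest. The log2 fold change of Gpx4 was 0.08 ± 0.07 SE, with an interval of -0.09 to 0.25 (edgeR adjusted p = 0.854).

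**Figure D2:**
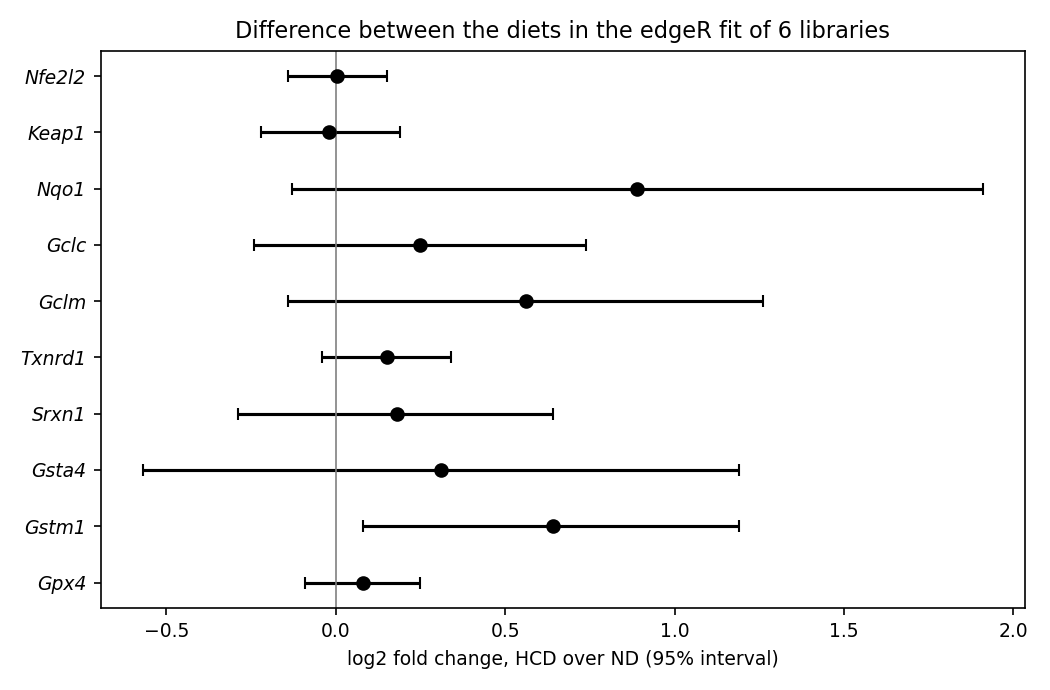
Log2 fold change of HCD over ND for the 10 genes (points) with 95% intervals (bars) from the edgeR fit of 6 libraries. The intervals of Nfe2l2, Keap1, Txnrd1 and Gpx4 are short and span 0, and that of Gstm1 alone lies above 0 before adjustment over all genes.

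Set against the whole table, 0 of the 10 genes passed an adjusted p of 0.05 in the edgeR test, in which 0.00% of all tested genes passed. The DESeq2 Wald test also called 0 of the 10, with 0.0386% of all tested genes called and a smallest adjusted p of 0.521 among the 10, that of Gstm1. At an unadjusted p under 0.05 edgeR picked 1 of the 10, Gstm1, where 5.30% of tested genes did so (1.81% higher and 3.48% lower in HCD tumours), and the Wald test picked 3 (Nqo1, Gclm and Gstm1), where 4.88% did so. Log2 fold changes were above 0 for 9 of the 10, with a median of 0.21, against 53.0% of tested genes and a median of 0.01 over all. The 9 count Nfe2l2, whose sign is not stable. The diets overlapped for all 10 genes. Of all tested genes, 4.75% had every HCD library higher than every ND library and 6.36% had every HCD library lower.

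Single libraries moved these counts. Without HCD 1, edgeR picked 5 of the 10 at an unadjusted p under 0.05 (Nqo1, Gclc, Gclm, Txnrd1 and Gstm1), where 4.12% of tested genes did so. Without ND 2 it picked 4 (Nqo1, Gclm, Srxn1 and Gstm1), where 8.53% did so, and 0.0126% passed over all genes. It picked 0 of the 10 without HCD 2, HCD 3, ND 1 or ND 3, where 5.29%, 6.23%, 2.37% and 3.29% of tested genes did so in that order. Adjusted over all genes, 0 of the 10 passed in any of the 6 fits, the smallest adjusted p being 0.566 without ND 2.

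A fit without HCD 1 and ND 2, the libraries rich in skeletal muscle RNA, was added after the data had been seen. These libraries were already known to lie against the diet difference of several of the genes, so its values are a description and support nothing. In the remaining 2 HCD and 2 ND libraries, both HCD libraries lay above both ND libraries for 6 of the 10 genes, Nqo1, Gclc, Gclm, Txnrd1, Srxn1 and Gstm1, where this held for 17.4% of tested genes. In the edgeR fit of these 4 libraries the log2 fold change was 1.57 ± 0.29 SE for Nqo1, 1.08 ± 0.11 for Gclm, 1.03 ± 0.17 for Gstm1 and 0.53 ± 0.11 for Srxn1. It was 0.43 ± 0.12 SE for Gclc and 0.27 ± 0.08 for Txnrd1, while Nfe2l2, Keap1 and Gpx4 stayed at -0.02, 0.05 and 0.04. Gsta4 was at 0.66 ± 0.37 SE, with an unadjusted edgeR p of 0.133. Each of Nqo1, Gclm, Gstm1, Srxn1, Gclc and Txnrd1 had an unadjusted p under 0.05, where 6.20% of tested genes did, and 0 of the 10 passed over all genes, with a smallest adjusted p of 0.402 for Gclm. The muscle markers were high in both libraries, while the 6 genes were low for the diet in HCD 1 and all but Gclc were high for the diet in ND 2. Among the kept libraries, HCD 2 still had summed muscle markers of 178.5 CPM, against 14.7 in HCD 3, 11.8 in ND 1 and 25.3 in ND 3. The part of the muscle RNA in these differences was not tested.

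**Figure D3:**
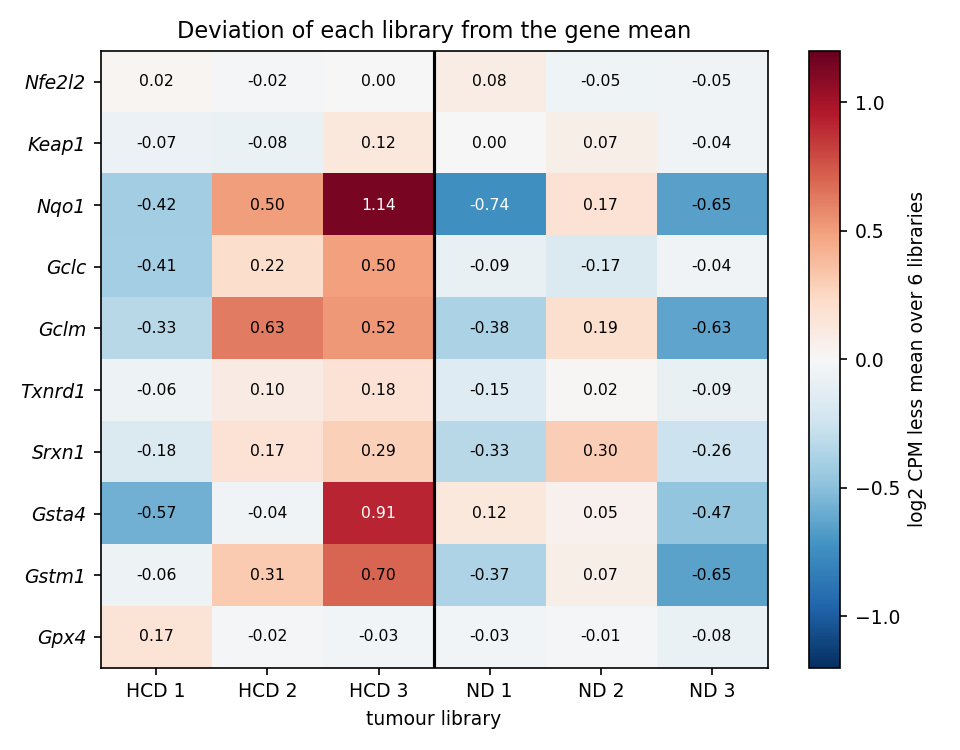
Deviation of each library from the mean of the gene over 6 libraries, in log2 CPM, with genes in rows and libraries in columns, HCD left of the line and ND right of it. HCD 3 is above the mean for 9 of the 10 genes and ND 3 for 0, and the deviations of Nqo1 run from -0.74 to 1.14. The share of all tested genes above their own mean is not given.

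The 3 highest libraries were HCD 2, HCD 3 and ND 2 for 5 of the 10 genes, Nqo1, Gclm, Txnrd1, Srxn1 and Gstm1, where this held for 4.92% of tested genes. This set of libraries was picked after the values were seen. The order within it varied, with HCD 2 highest for Gclm, ND 2 for Srxn1 and HCD 3 for Nqo1, Txnrd1 and Gstm1. For Nfe2l2, Keap1, Gclc, Gsta4 and Gpx4 other libraries were among the highest 3. In HCD 3, 9 of the 10 genes lay above their own mean, and in HCD 2 and HCD 1 6 and 2 did so. In ND 2, 7 lay above it, in ND 1 3 and in ND 3 0. The median deviation was 0.39 on the log2 scale in HCD 3 and -0.17 in ND 3. The share of all tested genes above their own mean is not given here for each library. Whether these counts are a trait of the libraries or of the 10 genes was therefore not tested.

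Cell type markers were set beside these levels. Erythroid markers, summed over 6 genes, were 56.8, 90.4 and 191 CPM in HCD 1 to HCD 3, against 43.1, 133 and 70.4 CPM in ND 1 to ND 3, so their 3 highest libraries were also HCD 3, ND 2 and HCD 2. Macrophage and monocyte markers summed to 949.8, 1597 and 732 CPM in HCD tumours, against 491, 1006 and 872 CPM in ND tumours, and T cell markers to 108, 151 and 64.3 CPM, against 22.4, 77.5 and 91.8 CPM. For both leucocyte lists ND 1 was lowest and HCD 2 highest, and HCD 3, the top library for Nqo1 and Gstm1, was the next to lowest. Fold changes were above 0 for 4 of 5 tested erythroid markers, 8 of 10 macrophage markers and 10 of 10 T cell markers. The share over all tested genes was 53.0%. Neutrophil markers summed to 90.4 to 102 CPM in HCD tumours, against 110.1 to 197 CPM in ND tumours, with 1 of 7 above 0. Fibroblast markers summed to 2520.0 to 3664 CPM in HCD tumours, against 2730.0 to 3984 CPM in ND tumours, and endothelial markers to 171 to 357 CPM, against 155 to 195 CPM. Hepatocyte markers summed to 4581, 3629 and 5455 CPM in HCD tumours, against 5107, 4144 and 3995 CPM in ND tumours. Among tested markers, fold changes were above 0 for 2 of 7 fibroblast, 6 of 6 endothelial and 4 of 4 adipocyte genes. The same held for 4 of 6 skeletal muscle, 3 of 6 hepatocyte and 2 of 2 pigment cell genes. The part of these cells in the levels of the 10 genes was not tested.

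The genes whose pattern lay closest to Nqo1 and Gstm1 were sought among tested genes averaging 10 CPM or more, by the root mean square difference of log2 CPM, each gene less its mean, over the 6 libraries. For Nqo1 the 3 closest of 9367 genes were Gulo, the gene of an enzyme of vitamin C synthesis, at 0.187, the haemoglobin gene Hba-a1 at 0.269 and Gstm1 at 0.289. For Gstm1 they were Creg1, which encodes a secreted glycoprotein, at 0.173, Gclm at 0.192 and Nudt13 at 0.196. Gulo deviated by -0.29, 0.23 and 1.09 in HCD 1 to HCD 3, against -0.79, 0.50 and -0.75 in ND 1 to ND 3, which is close to the profile of Nqo1 at -0.42, 0.50 and 1.14, against -0.74, 0.17 and -0.65.

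A wider set of 98 pathway genes in 7 lists, chosen with earlier results of these data known, was read in the same fit. Of these, 97 were in the table and 93 were tested, and 0 passed in either direction over all genes (smallest edgeR adjusted p = 0.839). Log2 fold changes were above 0 for 67 of the 93, with a median of 0.08, against 53.0% and a median of 0.01 over all tested genes. Every HCD library exceeded every ND library for 7 of the 93, where 4.75% of tested genes did so, and the opposite held for 1, where 6.36% did so. Genes named below from each list include the 2 with the smallest p, a choice that favours genes with no overlap. An unadjusted p under 0.05 was found for 5 of the 93, where 5.30% of tested genes had one. Over the fits without 1 library, between 60 and 69 of the 93 were above 0. Without HCD 1 and ND 2 together, a fit added after the data had been seen, 68 of the 93 were above 0. Their median was then 0.15, and 53.6% of tested genes were above 0.

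**Figure D4:**
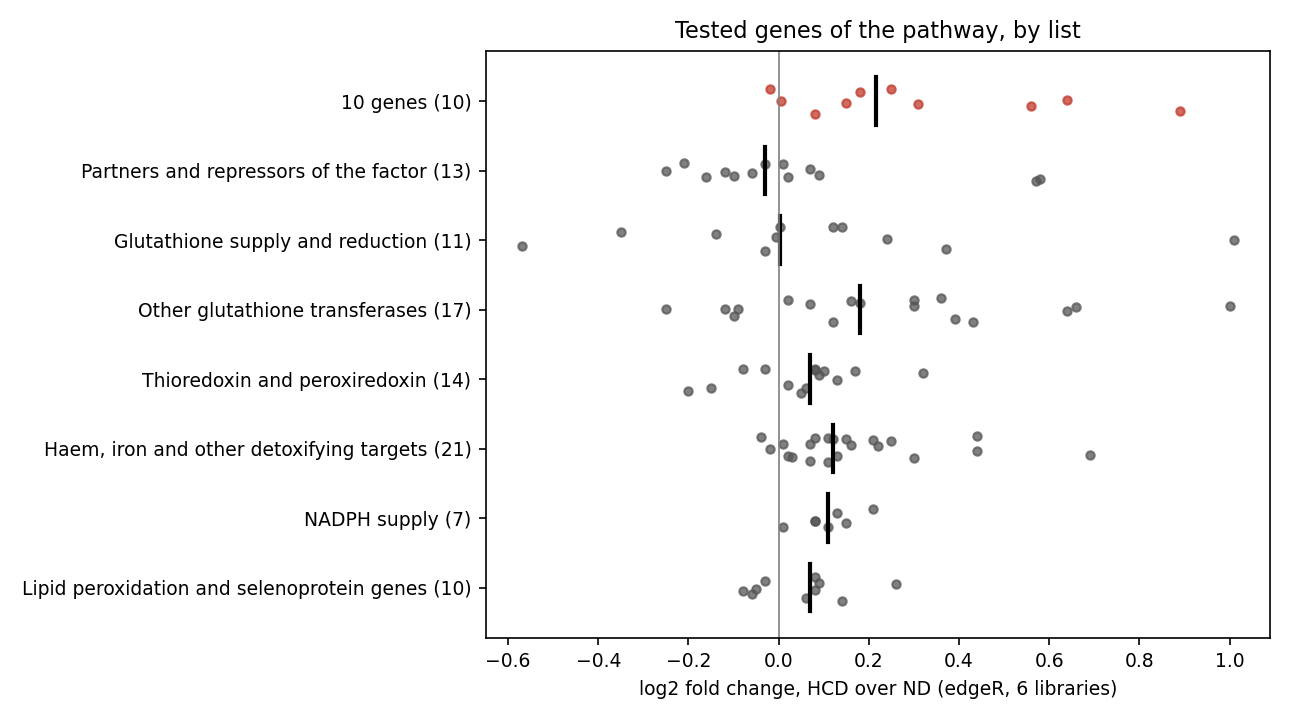
Log2 fold change of HCD over ND for the 10 genes (red) and for the tested genes of 7 further lists (grey, number tested in brackets), with the median of each list as a black bar. Genes above 0 run from 6 of 13 partners and repressors to 7 of 7 genes of NADPH supply, where 53.0% of tested genes lie above 0. Medians of the 7 further lists run from -0.03 to 0.18.

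Partners and repressors of NRF2 were centred near 0, with 6 of 13 above it and a median of -0.03. Maff, a small Maf partner gene, averaged 83.6 ± 7.89 CPM in HCD tumours and 96.6 ± 12.8 CPM in ND tumours (SD, n = 3 each), which is -0.21 ± 0.12 SE as a log2 fold change. Btrc, which encodes a ubiquitin ligase adaptor that also targets NRF2, was at -0.16 ± 0.11 SE. Sqstm1, whose product p62 binds KEAP1, had the highest FPKM of the list and was at 0.02 ± 0.09 SE, with a sign that turned without HCD 2, HCD 3 or ND 3. Btrc and Sqstm1 overlap exons of genes on the other strand.

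Glutathione supply and reduction had 6 of 11 tested genes above 0 and a median of 0.00302. Gpx8, which encodes a peroxidase of the endoplasmic reticulum, had 58.5, 51.0 and 50.5 CPM in HCD tumours, against 78.4, 60.1 and 64.9 CPM in ND tumours. All 3 HCD libraries lay below the 3 ND libraries, at a log2 fold change of -0.35 ± 0.12 SE (edgeR adjusted p = 0.839). This order held for 1 of the 11, where 6.36% of tested genes had it. Gsr, the glutathione reductase gene, had 160.0, 185 and 219 CPM in HCD tumours, against 150.1, 172 and 156 CPM in ND tumours, at 0.24 ± 0.12 SE. For Gsr, too, the 3 highest libraries were HCD 3, HCD 2 and ND 2, as for 4.92% of tested genes. This set was picked after the values were seen, and Gpx8 did not have it. Slc7a11, the cystine importer gene, added after its values were seen, averaged 251.4 ± 76.2 CPM in HCD tumours and 250.9 ± 30.7 CPM in ND tumours (SD, n = 3 each), at 0.00302 ± 0.22 SE and with no stable sign.

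Other glutathione transferases had 13 of 17 tested genes above 0 and a median of 0.18. Mgst1, a microsomal transferase gene, had 43.0, 59.3 and 55.4 CPM in HCD tumours, against 39.4, 42.2 and 39.2 CPM in ND tumours, with no overlap. Its log2 fold change was 0.39 ± 0.13 SE (edgeR adjusted p = 0.839). Gstt1, of the theta class, averaged 4.11 ± 0.489 CPM in HCD tumours and 2.61 ± 0.444 CPM in ND tumours (SD, n = 3 each), also with no overlap, at 0.66 ± 0.23 SE (edgeR adjusted p = 0.839). These were the 2 of the 17 with every HCD library above every ND library, where 4.75% of tested genes had this. Gstp1, of the pi class and the most abundant of the list per base, was at 0.30 ± 0.13 SE and has a close copy in Gstp2. Gsta1, Gsta2 and Gstm3 had too few counts to be tested.

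Thioredoxin and peroxiredoxin genes had 10 of 14 above 0 and a median of 0.07. Txn1, the thioredoxin gene and the most abundant of the list per base, averaged 369 ± 28.1 CPM in HCD tumours and 328 ± 19.1 CPM in ND tumours (SD, n = 3 each), at 0.17 ± 0.08 SE. Txnip, whose product binds thioredoxin and restrains glucose uptake, was at -0.20 ± 0.12 SE and overlaps an exon of Gm15441 on the other strand.

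Haem, iron and other detoxifying targets had 19 of 21 above 0, where 53.0% of tested genes were, and a median of 0.12. Their log2 fold changes ran from -0.04 to 0.69, and sign stability was checked only for the genes named. Fth1, the heavy chain of the iron store ferritin and the most abundant of the list per base, had 1392, 1947 and 1721 CPM in HCD tumours, against 1162, 1422 and 1139 CPM in ND tumours. HCD 1 lay just below ND 2, and the log2 fold change was 0.44 ± 0.14 SE (edgeR adjusted p = 0.839). Fth1 has close copies in the genome. Blvrb, a biliverdin reductase gene, was at 0.21 ± 0.10 SE with no overlap between the diets. Every HCD library exceeded every ND library for 3 of the 21, where 4.75% of tested genes did so. Hmox1, the haem oxygenase gene, added after its values were seen, had 40.8, 239.5 and 157 CPM in HCD tumours, against 91.1, 137 and 42.4 CPM in ND tumours. HCD 1 was its lowest library and HCD 2 its highest, so the ND libraries lay between them, and its fold change of 0.69 had an interval of -0.83 to 2.22 on the log2 scale. It was 0.14 without HCD 2 and 1.13 without ND 2.

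NADPH supply, which feeds both glutathione and thioredoxin reduction, had 7 of 7 genes above 0, where 53.0% of tested genes were. The median was 0.11 and the range 0.01 to 0.21, so its lower end lay near 0. Sign stability was checked only for the genes named. G6pdx, the first enzyme of the pentose phosphate pathway, was at 0.21 ± 0.11 SE and shares exon bases with Ikbkg on the other strand. Taldo1, the transaldolase gene and the most abundant of the list per base, was at 0.15 ± 0.09 SE.

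The list on lipid peroxidation besides Gpx4 had 6 of 10 above 0 and a median of 0.07. It mixes roles: guards such as Aifm2, genes of selenoprotein synthesis, and Lpcat3 and Acsl4, which load polyunsaturated chains into lipids and so supply what is oxidised. Aifm2 was at 0.14 ± 0.16 SE and Acsl4 at 0.06 ± 0.06 SE, both named after their values were seen. Lpcat3, which encodes an enzyme that puts polyunsaturated chains into phospholipids, averaged 192 ± 19.8 CPM in HCD tumours and 160 ± 10.3 CPM in ND tumours (SD, n = 3 each), at 0.26 ± 0.09 SE (edgeR adjusted p = 0.839), and overlaps Emg1 on the other strand. Sephs2, a gene of selenocysteine synthesis, on which Gpx4 and Txnrd1 depend, was at 0.09 ± 0.09 SE.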

How the data were processed

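RNA-seq of 3 HCD and 3 ND tumours was read from 1 table of raw counts and FPKM values per gene, which the authors deposited side by side. Per the submitters' processing notes, the tools were edgeR, HTSeq, TopHat2 2.0.9 and CASAVA 1.8 and the build was mm10, without roles or order. Annotation, strand setting and handling of multiple matches are not given in the sources used here. Deposited FPKM values equalled the count over the library total and a gene length that differed by at most 0.0955% between libraries. Diets and numbers came from the labels.

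CPM was computed from the counts with TMM factors. Diets were compared with edgeR 4.0.16 by its quasi-likelihood test (R 4.3.3, legacy form, default filter with minimum count 10 and total 15) with diet as the only term, and p-values were adjusted by Benjamini-Hochberg over all tested genes. Log2 fold changes used a prior count of 0.125, and deviations used log2 CPM with a prior count of 2. SE were derived from F and the fold change, and intervals are 95%. The code was tested on simulated data. An exact permutation test of 3 against 3 cannot go below 0.10 and was not used.

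The 10 genes and all lists were chosen with earlier results of these data known. All 10 are named, and from each further list the 2 genes with the smallest p and the gene with the highest FPKM, apart from Hmox1, Slc7a11, Aifm2 and Acsl4. For likeness to Nqo1 and Gstm1 the 3 closest genes are named, predicted genes passed over. Coordinates are from GENCODE M21 (GRCm38, the assembly of mm10) and promoter sequences from RefSeq (GRCm38). The replicates of a diet differed far beyond counting noise, and no library was a copy of another. Alternatives were DESeq2 1.42.0 (size factors and Wald test), limma 3.58.1 (voom and log2 FPKM with pseudocounts of 1 and 0.1), other filters, a replicate block and each library left out. Adjusted deviances and the fit without HCD 1 and ND 2 were added after seeing the data.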

Additional observations from a re-analysis of the deposited data

How the results depend on the processing

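For the 10 genes, 0 passed over all genes under each of the 17 alternatives. Over all tested genes, none passed, except for 6 with the DESeq2 Wald test and, among fits without 1 library, 0 to 2 (2 without ND 2); the cause was not tested. The median log2 fold change of the 10 was 0.21, and ran from 0.08 (without HCD 3) to 0.38 (without HCD 1), and was 0.48 without HCD 1 and ND 2. Outside the fits without 1 library, 312 of 319 values kept their sign and side of the threshold. These values cover that median and the named genes, apart from Aifm2, Acsl4 and the genes named only for likeness. Those that turned began near 0: without HCD 1 and ND 2 together, Nfe2l2 was -0.02 and Keap1 0.05, and Slc7a11 was -0.02 with limma on log2 FPKM at pseudocounts of 1 and 0.1 and with no FPKM filter, and -0.04 with limma-voom and with the replicate block. Over the fits without 1 library, the log2 fold change ran from -0.02 to 0.05 for Nfe2l2, from -0.09 to 0.02 for Keap1, from -0.21 to 0.59 for Gsta4, from -0.03 to 0.11 for Sqstm1 and from -0.22 to 0.21 for Slc7a11. For the other genes so checked it kept its sign, from 0.39 to 0.83 for Gclm and 0.42 to 0.86 for Gstm1. The labels do not say whether the replicate numbers pair the tumours. Correlations of same-numbered deviations from the diet mean were -0.307, 0.14 and 0.0832. With 3 libraries per diet, such correlations cannot decide the question. With the replicate block 0 of the 10 passed and 0 genes in all. Nqo1 had the lowest counts of the 10, and its interval was -0.13 to 1.91; how far depth limits it was not tested.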
